A study of Mus musculus with 2 samples.

Results

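The distal Dlk1-Dio3 cluster is a run of microRNA genes on the plus strand of mouse chromosome 12, reaching from Mir379 to Mir410 and the Mir3072 gene beyond it (GRCm38, 109709060 to 109747960). Its members were taken by position as all microRNA genes of that strand in the window that had a row in the count tables. They number 34 of 1973 gene rows. MicroRNA-seq had been done on the intestine of B6NCrl embryos of both sexes at 14.5 days of development, with no treatment and no second group, in 2 libraries that the labels number as biological replicates 1 and 2. The labels tie each library to the intestine of a single pup, yet describe the sex as pooled, and the tissue of the libraries was collected on different days, so that replicate and collection day cannot be told apart. As the single group allows no contrast of conditions, the question addressed here is how much each member contributed in this tissue and how far that value held between the libraries.

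The cluster belongs to an imprinted domain. Its microRNAs are cut from long non-coding transcripts (Meg3, Rian and Mirg) that are made from the maternally inherited chromosome, while the protein-coding genes Dlk1, Rtl1 and Dio3 are expressed from the paternal copy. The cluster is found in placental mammals, is known for its expression in the embryo, the placenta and the brain, and holds many hairpins of related sequence that are thought to have arisen by repeated duplication. A microRNA finds its targets mainly through its seed, bases 2 to 8 of the mature strand, so that a change of 1 base in the seed gives a different set of predicted targets.

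Counts on the gene's own strand summed to 15090126 in replicate 1 and 3903472 in replicate 2 over all gene rows. Levels are given as CPM, the count per 1000000 of this sum, and errors are SD over the 2 libraries (n = 2). Detection required 10 counts or more in each library, which 363 genes reached. The intestinal epithelial markers Mir192, Mir194-1, Mir194-2 and Mir215 were all detected and summed to 0.898% and 1.14% of the counts in replicates 1 and 2, and the smooth muscle markers Mir143 and Mir145a to 17.2% and 15.0%. The microRNAs of the cluster are well known from neurons. Of 8 neural markers measured, 4 were detected and 3 (Mir9-2, Mir124a-2 and Mir124a-3) were at 0 in both libraries, and the list summed to 0.214% and 0.244%. Because 7 of these 8 markers share hairpin sequence with another locus, as do 2 of the 4 epithelial markers, reads could be missing from both sums. The part of neural cells in the cluster's level was not tested.

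Mature sequences of 33 of the 34 members, 61 sequences in all, and 10 of neighbouring plus-strand genes with no row were found in RefSeq (GRCm38.p6). The sequences that follow are examples from the 3 named groups and not all of their sequences. The seed is in capitals and all strands are written 5′ to 3′. The first set is the miR-379 and miR-411 group with miR-1193, whose 5p arm carries the seed of miR-379-5p.
miR-379-5p: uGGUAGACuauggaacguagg
miR-411-5p: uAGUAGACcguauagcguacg
miR-1193-5p: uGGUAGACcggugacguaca
miR-379-3p: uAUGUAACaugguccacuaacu
miR-411-3p: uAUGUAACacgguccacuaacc
miR-380-3p: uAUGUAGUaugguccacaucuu

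With positions counted from the 5′ end, miR-379-5p and miR-411-5p differ in the seed by G2A alone, while their 3p arms have the same seed and match at 20 of 22 bases. The seed of miR-1193-5p is that of miR-379-5p, but the strands match at 10 of 20 bases. The miR-376 group, whose hairpins are known substrates of adenosine-to-inosine editing, is shown next, followed by the miR-154 group with miR-485-3p.
miR-376a-3p: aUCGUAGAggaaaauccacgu
miR-376b-3p: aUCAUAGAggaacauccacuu
miR-376c-5p: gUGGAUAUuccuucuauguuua
miR-376b-5p: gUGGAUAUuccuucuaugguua
miR-154-3p: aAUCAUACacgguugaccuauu
miR-369-3p: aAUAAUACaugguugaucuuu
miR-485-3p: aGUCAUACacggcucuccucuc
miR-410-3p: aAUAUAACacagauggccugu
miR-381-3p: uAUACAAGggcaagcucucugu
miR-300-3p: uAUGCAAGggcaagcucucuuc

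In the seed, miR-376b-3p differs from miR-376a-3p by G4A, miR-369-3p from miR-154-3p by C4A, miR-485-3p from miR-154-3p by A2G and miR-300-3p from miR-381-3p by A4G. The seed of miR-410-3p lies further off, with C4A, A5U and U6A against miR-154-3p. Other genes of the miR-154 group are less alike, as miR-154-5p and miR-496a-5p match at 6 of 21 bases and differ at 5 seed positions. Abundant genes of the locus whose seeds occur on no other mature sequence found there are shown last. Mir382 and Mir409 among them are also assigned to the miR-154 group.
miR-541-5p: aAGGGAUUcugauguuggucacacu
miR-382-5p: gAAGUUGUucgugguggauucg
miR-134-5p: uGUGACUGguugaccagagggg
miR-409-3p: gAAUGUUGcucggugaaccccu

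For Mir487b, Mir539, Mir376c, Mir485 and Mir453 only 1 mature sequence was found, so the numbers of seeds given here are minimums. The 71 mature sequences found at the locus carried 65 different seeds. Only 6 seeds occurred on more than 1 of them: those of miR-379-3p with miR-411-3p, miR-379-5p with miR-1193-5p, miR-494-5p with miR-410-5p, miR-376c-5p with miR-376b-5p, miR-453 with miR-496a-5p, and miR-1197-5p with miR-758-5p. Of the 65 seeds, 10 were also found on a mature sequence outside the window, among them that of miR-329-3p on Mir362 and that of miR-410-3p on genes of the Mir344 family. The letters GGUUG, seen after reading the sequences and searched on the mature strand as written, were present in 12 of the 71 (16.9%) against 2.58% of the other 1665 mature sequences of the table. Of the 3 strings searched in this way it had the widest contrast, as ACGG was present in 9.86% against 2.70% and AUGG in 16.9% against 8.41%. The counts are per gene and do not separate the 5p from the 3p arm, so a seed below stands for its gene and not for a measured strand.

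The distal microRNAs made up 4.86% of all gene counts in replicate 1 (Wilson 95% interval 4.85 to 4.87%) and 4.66% in replicate 2 (4.64 to 4.68%), a mean of 4.76 ± 0.142%. Without the 4 members that share hairpin sequence the mean was 3.06%. The interval covers counting error alone. Of the 34 members, 30 were detected, 23 had a mean of at least 100 CPM and 10 of at least 1000 CPM. Over the detected members the median level was 369 CPM in replicate 1 and 370 CPM in replicate 2, against 128 and 135 CPM over all detected genes. No member was among the 20 most abundant genes of either library, 4 were among the first 50 in both and 10 among the first 100 in both. 

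Mir411 and Mir487b led the cluster at almost the same level. The level of Mir411 (109710175 to 109710256, outside any annotated Mirg transcript) was 8838 CPM in replicate 1 and 8017 in replicate 2. Mir487b (109727333 to 109727414, likewise outside Mirg) had 8276 and 8165 CPM. Their order changed between the libraries, as the ratio of Mir487b to Mir411 was 0.936 in replicate 1 and 1.02 in replicate 2, so they did not differ beyond their spread. Both hairpins have a stretch of at least 20 bases in common with another hairpin of the locus (Mir411 with Mir758, Mir487b with Mir376b), and reads aligned to several places were not assigned to genes. No mature sequence given for the members was found whole in another hairpin, but this search was incomplete. For Mir487b and Mir376c only the 5p strand was available, and 36 hairpins of the locus had a sequence. An exact whole match also does not reproduce how reads were aligned, so the loss of reads at these genes was not tested.

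Mir541 and Mir379 came next. Mir541 (109742409 to 109742498, in a Mirg intron) had 5994 and 6182 CPM in replicates 1 and 2. Mir379, the first gene of the cluster (109709060 to 109709125), had 5787 and 5002 CPM and so lay below Mir541 in both libraries. Mir369 (109743418 to 109743496), whose 3p strand has been studied for translation control through AU-rich elements, had 4567 and 3787 CPM. The values of Mir541, Mir379 and Mir369 did not overlap, although for Mir379 and Mir369 the gap between the libraries was wider than for Mir541.

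Mir382, in a Mirg exon, stood at 3296 CPM in replicate 1 and at 3465 in replicate 2. Mir381, which is near-identical to Mir300 in its 3p strand, had 2676 and 2853 CPM. Mir154, the name-giver of the largest group, had 1540 and 1710 CPM. Mir134, known from its action on dendritic spines in neurons, had 1490 and 1434 CPM, a value below Mir154 in both libraries. Mir1193 closed the first 10 with 1275 and 1141 CPM. The same 10 members were the most abundant of the cluster in both libraries.

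The other detected members lay below 1000 CPM. Mir300 had 860 ± 13.5 CPM, Mir323 had 576 ± 33.0 CPM and Mir494 had 548 ± 35.9 CPM. Mir323 and Mir494 exchanged places between the libraries, with 599 and 552 CPM for the first and 523 and 574 CPM for the second. Mir329 (437 ± 13.8 CPM), Mir543 (404 ± 0.303 CPM), Mir376c (335 ± 1.26 CPM), Mir667 (268 ± 13.5 CPM) and Mir485 (237 ± 7.16 CPM) kept their order in both. Mir496a (186 ± 47.8 CPM) had the widest spread relative to its level of the members above 100 CPM. Mir410 and Mir679 (154 ± 8.96 and 153 ± 3.03 CPM) did not differ beyond their spread, while Mir495 (140 and 125 CPM) and Mir377 (105 and 122 CPM) came close in replicate 2. The lowest detected members were Mir412 (99.1 CPM), Mir539 (84.4 CPM), Mir668 (81.4 CPM), Mir3072 (76.5 CPM), Mir666 (74.2 CPM), Mir758 (43.3 CPM) and Mir1197 (3.66 CPM).

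The 4 members that were not detected were Mir654, Mir453, Gm27379 and Mir544. Mir654 and Mir453 had no count in either library. The limit used for a count of 0, set at 3 counts, was 0.199 CPM in replicate 1 and 0.769 CPM in the shallower replicate 2. It is not a strict maximum and covers only reads assigned to the gene. Gm27379 had 3 counts in replicate 1 and 0 in replicate 2. Mir544 had 43 and 6 counts, so its level of 2.85 and 1.54 CPM is close to the limit in the shallower library.

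**Figure D1:**
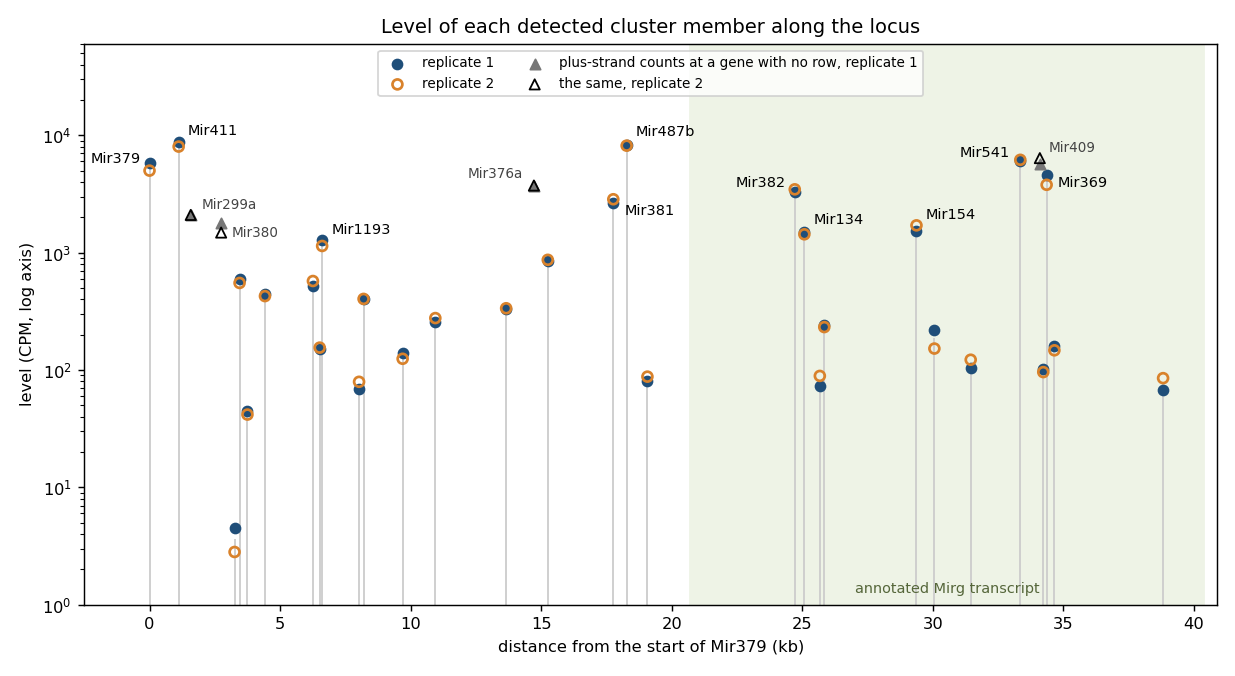
Level in CPM (log axis) of the 30 detected members against the distance of each gene from the start of Mir379, with filled circles for replicate 1, open circles for replicate 2 and grey lines dropped from the mean. Triangles give plus-strand counts at Mir299a, Mir380, Mir376a and Mir409, which have no row of their own, and the shaded span is the annotated Mirg transcript. High and low members are interspersed along the locus, from 8838 CPM for Mir411 to under 5 CPM for Mir1197.

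Large differences in level occurred between members lying side by side. The members are close together, with a median gap of 644 bp and a shortest gap of 20 bp. Yet the median absolute log2 difference between neighbouring detected members was 2.77, against 2.55 over all pairs of detected members, neighbours included. Gaps and neighbours were taken among genes with a row, and genes without a row were skipped. Mir299a and Mir380 thus lie between Mir411 and Mir1197, and Mir409, which lies between Mir541 and Mir412, entered no pair. Mir1193 exceeded Mir679, which lies 20 bp away, 7.90 ± 0.779-fold. Mir369 exceeded Mir412, at a distance of 49 bp, 42.1 ± 3.73-fold, and Mir410, at 218 bp, 27.1 ± 2.01-fold. In 8 neighbouring pairs at most 250 bp apart the higher gene exceeded the lower by 2.95-fold (Mir485 over Mir668) to 164-fold (Mir323 over Mir1197, where Mir1197 had 68 and 11 counts), with a median of 10.6-fold. In each of these pairs the same gene was the higher in both libraries. Small RNA libraries are known to take up sequences unequally, so ratios between genes compare counts and not molecules.

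Level and position along the locus were nearly uncorrelated. Across the 30 detected members, Pearson's r of log2 level with position was 0.034 and Spearman's rho -0.061, given as a description, since the members come from shared transcripts and the same 2 libraries. The annotated Mirg transcript (109729764 to 109749460) covers the end of the locus. The 21 members upstream of it held 62.9 ± 0.579% of the cluster's counts, and the 13 members inside it 37.1 ± 0.579%. All 4 members that share hairpin sequence lie upstream, among them Mir411 and Mir487b with a mean of 17.7% and 17.3% of the cluster. The larger upstream share depends on these members. The median detected level was 425 and 415 CPM upstream of Mirg in replicates 1 and 2, and 231 and 192 CPM inside it. Among the members inside, Mir382, Mir134, Mir668, Mir485 and Mir410 lie in an exon of every Mirg transcript that covers them. Mir541, Mir154, Mir496a, Mir453 and Mir3072 lie in introns, and Mir369, Mir412 and Mir377 in an exon of some of the transcripts that cover them.

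The miR-154 group gave the largest part of the cluster's counts. The groups are fixed lists of gene names and were not built from the sequences. Mir485 and Mir1193, whose related strands are shown above, are in none of them. No sequence of Mir487b was compared with those of other genes. Its 12 members with a row (Mir154, Mir487b, Mir369, Mir410, Mir381, Mir300, Mir377, Mir382, Mir323, Mir494, Mir496a and Mir539), all detected, held 47.1% of the cluster in replicate 1 and 48.2% in replicate 2. Within the group, levels ran from Mir487b down to Mir539, and genes of like sequence differed several-fold. Mir154 reached 0.337 of the level of Mir369 in replicate 1 and 0.451 in replicate 2. Mir381 exceeded Mir300 3.21 ± 0.0954-fold, although their 3p strands match at 19 of 22 bases. Mir494 exceeded Mir410, which has the same 5p seed, 3.58 ± 0.442-fold.

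The miR-379 and miR-411 group came second through its first 2 genes. Mir379, Mir411 and Mir758 held 30.2% of the cluster in replicate 1 and 28.0% in replicate 2, or 17.6% on average once genes that share hairpin sequence (Mir411 and Mir758 here) were left out. Mir411 exceeded Mir379 1.56 ± 0.0533-fold and Mir758 194 ± 3.34-fold. Mir1193, with the 5p seed of miR-379, lay 4.46 ± 0.107-fold below Mir379. The miR-376 group was represented by Mir376c alone, at 334 and 336 CPM, or 0.704 ± 0.0236% of the cluster. The other 18 members, in none of these groups, held 22.1% and 23.0%, led by Mir541 and Mir134.

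Some genes of the groups are missing from these sums because they had no row. Of 5 such plus-strand genes in the window, 4 overlap a row annotated on the minus strand, and the reads of those rows lay on the strand opposite to the annotation, which is the strand of the known gene. At Mir409 these plus-strand counts came to 5672 CPM in replicate 1 and to 6393 in replicate 2, overlapping the values of Mir541. At Mir376a they came to 3731 and 3734 CPM, at Mir299a to 2107 and 2098 CPM and at Mir380 to 1773 and 1484 CPM. The minus strand had 23 and 9 counts at Mir299a and 0 at the other 3 places. Mir376b overlaps no row and was not measured.

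Adding these counts raised the cluster from 4.76% to 6.03 ± 0.112% of the total and changed 1 group far more than the others. The miR-376 group rose from 0.704% to 6.66 ± 0.127% of the cluster, nearly all of it at Mir376a. With the same addition the miR-154 group, joined by Mir409, stood at 47.0 ± 1.22%, and the miR-379 and miR-411 group, joined by Mir380, at 25.3 ± 1.73%. The order of miR-154 before miR-379 and miR-411 before miR-376 was the same with and without these counts.

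**Figure D2:**
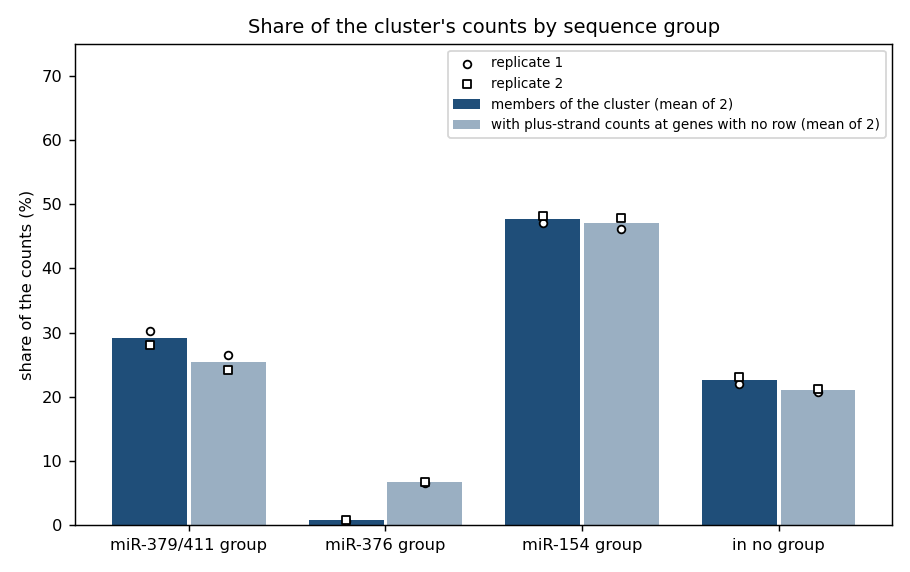
Share of the cluster's counts (%) held by each group, where the groups are fixed lists of gene names. Dark bars are the members, pale bars include plus-strand counts at genes with no row, each bar is the mean of the 2 libraries, and circles and squares are replicates 1 and 2. The miR-154 group is highest under both countings, at 47.7% and 47.0%, and the miR-376 group moves from 0.704% to 6.66%.

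Counts were spread over more genes in the distal cluster than in the proximal genes of the same domain, but the distal cluster also has more genes. The 19 proximal microRNA genes, which lie upstream of Mir379 on the same strand and include those antisense to Rtl1, held 2.33% of all counts in replicate 1 and 2.29% in replicate 2. They were led by Mir127 (9772 ± 226 CPM), Mir431 (5552 ± 508 CPM) and Mir337 (1827 ± 83.9 CPM), and 14 of them were detected. The distal members together exceeded them 2.09-fold in replicate 1 and 2.04-fold in replicate 2 (log2 ratio 1.06 and 1.03). Without genes that share hairpin sequence the mean log2 ratio was 0.41, and with the plus-strand counts above it was 1.40, where counts were added on the distal side alone and no such addition was made for proximal genes. In the distal cluster 4 members held 50% of the counts and 11 held 90% in each library. In the proximal set 2 and 6 genes did so, and in the 6-gene miR-17-92 cluster of Mir17hg 1 and 3 genes. The most abundant gene took 18.2% and 17.5% of the distal cluster, 41.2% and 43.4% of the proximal set and 58.7% and 59.5% of miR-17-92. The clusters differ in their number of genes. As parts of all genes, 4 of 34 and 11 of 34 distal members lie close to 2 of 19 and 6 of 19 proximal genes. With 2 libraries an exact permutation test of a difference between clusters cannot reach 0.05.

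**Figure D3:**
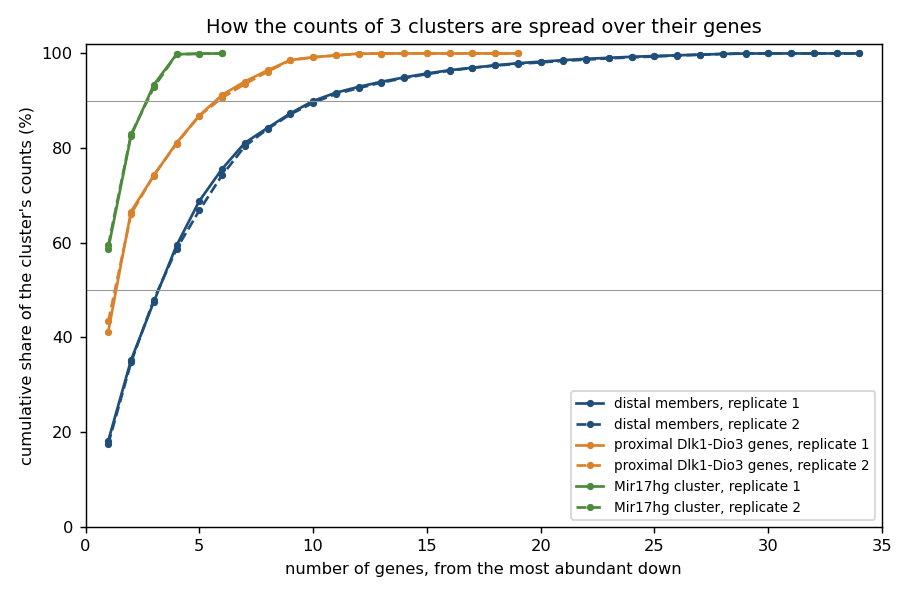
Cumulative share of a cluster's counts (%) against the number of genes, taken from the most abundant down, for the distal members, the proximal Dlk1-Dio3 genes and the Mir17hg cluster. Solid lines are replicate 1 and dashed lines replicate 2. The distal curve crosses 50% at 4 genes and 90% at 11 in both libraries.

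Levels of the members were close between the libraries, and the differences that passed a test went both ways. For each gene a two-sided exact binomial test asked whether its counts were split between the libraries as their totals were, with p adjusted by Benjamini-Hochberg over all 363 detected genes. It compares these 2 libraries only. Of the 30 detected members, 15 passed, against 43.8% of all detected genes. Of these 15, 8 were higher in replicate 2 (26.7% of the members, against 29.8% of all detected genes), and 7 were lower (23.3%, against 14.0%). With edgeR's TMM scaling 3 members were called higher and 12 lower, and with DESeq2 size factors 3 and 11, while over all detected genes the split went from 108 higher and 51 lower to 68 and 80 with TMM and 72 and 77 with DESeq2 size factors. The members' share of calls was near that of all genes, and the split by direction depended on the scaling.

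The members differed little in size. Their median log2 difference, replicate 2 over replicate 1, was -0.01, against 0.06 over all detected genes, and their median absolute log2 difference 0.12, against 0.15. Among genes of at least 100 CPM the median absolute difference was 0.10 for the 23 members and 0.11 for all 195 such genes. A single member, Mir1197 (4.51 and 2.82 CPM), was over 1.5-fold apart (3.33% of the members, against 8.82% of all detected genes), and it did not pass (adjusted p = 0.270 by the exact test). Across the 30 members Pearson's r of log2 CPM between the libraries was 0.997, as a description, since genes are not independent replicates.

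All 7 members called lower in replicate 2 were also called lower under both other scalings. Each of these scalings moved every log2 difference down by a constant, for Mir411 from -0.14 to -0.21 with TMM and to -0.20 with DESeq2 size factors. A lower call could hardly be lost in this way, so its keeping adds little. Mir496a, in a Mirg intron, differed most, with 220.0 CPM in replicate 1 against 152 in replicate 2, a log2 difference of -0.53 (95% counting interval -0.66 to -0.40, adjusted p = 6.49e-17 by the exact test). Mir369, with the values given above, followed at -0.27 (adjusted p = 2.95e-97 by the exact test), then Mir379 at -0.21, Mir1193 at -0.16 and Mir411 at -0.14. Mir323 (-0.12) and Mir134 (-0.06) no longer passed when replicate 1 was thinned to the depth of replicate 2. Mir134 also did not pass without the count minimum (adjusted p = 0.0522 by the exact test). Mir379 and Mir411 and, with the 5p seed of the former, Mir1193 were thus all lower in replicate 2, while the third gene of the miR-379 and miR-411 group, Mir758, had 44.9 and 41.8 CPM and did not pass.

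Of the 8 members called higher in replicate 2, 3 were called higher under both other scalings, whose downward shift works against higher calls. Mir3072, the last gene of the cluster, had 67.7 CPM in replicate 1 against 85.3 in replicate 2, a log2 difference of 0.33 (interval 0.15 to 0.51, adjusted p = 0.000989 by the exact test). Mir668 had 73.6 and 89.2 CPM (0.28, adjusted p = 0.00599 by the exact test) and Mir154 differed by 0.15. Mir3072 and Mir668 did not pass with replicate 1 thinned. Mir377 (105 and 122 CPM, 0.22), Mir494 (0.13), Mir381 (0.09) and Mir382 (0.07) lost the call under both other scalings, and Mir541 (0.04) turned to -0.023 with TMM and -0.013 with DESeq2 size factors. The miR-154 group therefore held members called in both directions, with Mir154 higher and Mir369, Mir496a and Mir323 lower in replicate 2 under all 3 scalings.

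**Figure D4:**
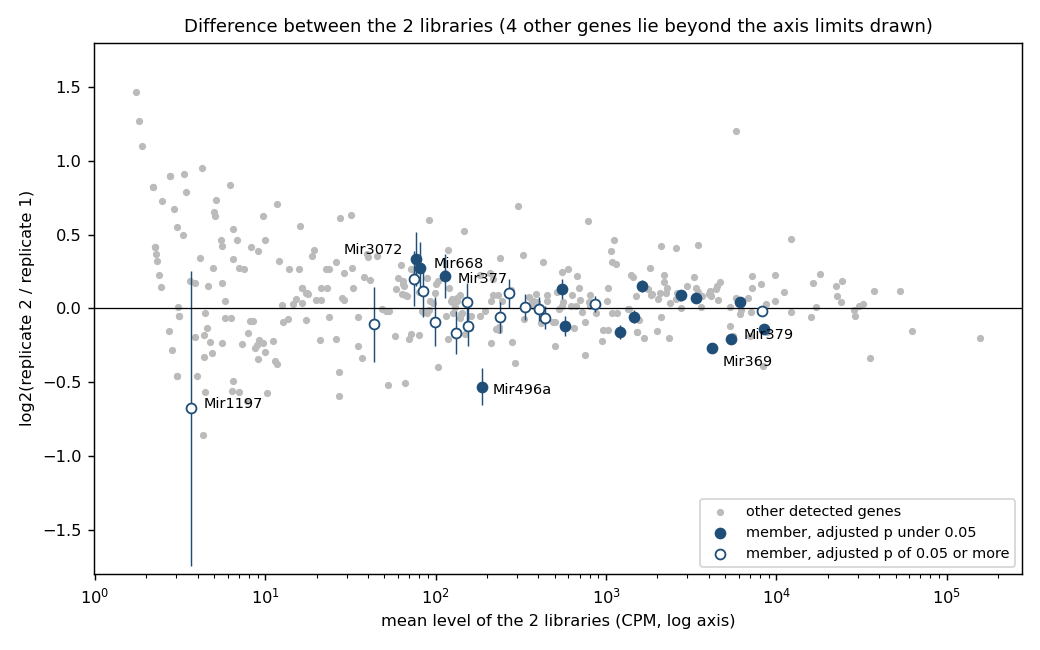
Log2 difference, replicate 2 over replicate 1, against mean level in CPM (log axis) for the cluster members (blue, with 95% counting intervals) and the other detected genes (grey). Filled circles passed the exact binomial test at an adjusted p under 0.05, and 4 other genes lie outside the drawn range. Members lie on both sides of 0, from -0.68 for Mir1197 to 0.33 for Mir3072.

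Beside Mir369, which was called lower, Mir412 (-0.09) and Mir410 (-0.12), 49 and 218 bp from it, had log2 differences of the same sign but did not pass. Mir1193, called lower, lies 20 bp from Mir679 (0.04, not passing) and in the same run as Mir494, called higher. Upstream of Mirg 2 of 18 detected members were called higher and 4 lower, and inside it 6 of 12 higher and 3 lower, against 29.8% higher and 14.0% lower of all detected genes. Both upstream higher calls (Mir494 and Mir381) were lost with TMM and with DESeq2 size factors, and 3 of the 6 inside (Mir154, Mir668 and Mir3072) were kept. Marker sums also differed between the libraries, the intestinal epithelial sum by a log2 of 0.34, the smooth muscle sum by -0.20, the neural sum by 0.19, the erythroid sum by 0.66, the leukocyte sum by 0.32, the liver marker by 0.36, the pancreatic sum by 1.20 and the skeletal and cardiac muscle sum by -0.06. Only 2 of 6 measured muscle markers were detected, 3 of the 6 share hairpin sequence, and the leukocyte list lacked Mir142, which had no row. The part of the marker sums in the members' differences was not tested. In bulk tissue, fewer cells of a type and less RNA per cell cannot be told apart.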

How the data were processed

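Each library has a deposited table of raw read counts by gene, in 3 columns without names. They were read as total, sense and antisense from the values, since the first equals the sum of the others in every gene row. The authors used mm10 and GENCODE M4, per text files deposited beside the tables. Aligner, trimming and counter are not given in the sources used here. Rows for unaligned reads (12.4% and 13.8% of the table in replicates 1 and 2), multimapping reads (26.5% and 26.6%) and reads outside genes (2.20% and 2.10%) were left out of totals and tests.

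Gene names, types and positions came from GENCODE M21 (GRCm38), matched on identifiers without version; 1894 of 1973 rows matched. For 12 of the 34 members the version differs, so the interval counted may differ from the one given. Sense counts were scaled to CPM. As 1 group leaves no contrast for edgeR's quasi-likelihood test, libraries were compared by the exact binomial test across all detected genes (threshold 0.05). The test was also run on simulated counts that held counting error alone, which is the error it assumes. That run does not show how the test behaves under wider spread. A count of 0 allows 3 counts. Alternatives used edgeR 4.0.16 (TMM), DESeq2 1.42.0 (size factors), other count minimums, both strands, thinning, and leaving out genes with an identical stretch of 20 hairpin bases elsewhere. Tests used SciPy 1.17.1 in Python 3.11.15. PCR copies count as reads, so intervals cover counting error only. The p-values set each difference between these 2 libraries against counting error alone, so at this depth small differences pass; they do not measure the spread between animals.

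Every member may be named; full values are given for the 10 highest, the miR-379 and miR-411 and miR-376 groups and the largest differences in each direction. Members, groups and marker lists were chosen with earlier results of these data known. Mir496 of the miR-154 group is Mir496a in the annotation. The muscle list holds Mir1a-1, Mir1a-2, Mir133a-1, Mir133a-2, Mir206, Mir208a and Mir208b, of which Mir1a-2 had no row. The erythroid list holds Mir451a, Mir144 and Mir486, and the leukocyte list Mir142, Mir223 and Mir150. The liver marker is Mir122. The pancreatic list holds Mir375, Mir216a, Mir216b and Mir217, and Mir375 was not separated from its sum. Marker lists not described in the report summed, in replicates 1 and 2, to 0.00294% and 0.00282% (skeletal and cardiac muscle), 0.0258% and 0.0409% (erythroid), 0.0392% and 0.0488% (leukocyte), 0.00398% and 0.00510% (liver) and 0.350% and 0.807% (pancreas) of the counts.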

Additional observations from a re-analysis of the deposited data

Results flagged for a closer look

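Counts on the strand opposite to the annotated row, which entered no main sum, lay far above the limit that a count of 0 allows at 4 places of the cluster. Their mean level was 6033 CPM at Mir409 (row Gm24321), 3732 CPM at Mir376a (row Gm25252), 2102 CPM at Mir299a (row Mir299b) and 1629 CPM at Mir380 (row Gm25750). Together they amounted to 27.3% of the members' own counts in replicate 1 and 29.4% in replicate 2.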

How the results depend on the processing

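The cluster's share of 4.76% became 4.62% with both strands counted, 5.65% without the most abundant gene in the total, 3.06% without members that share hairpin sequence and 6.03% with plus-strand counts at genes without a row, an alternative chosen after seeing the data; leaving out each replicate gave 4.66 to 4.86%. The log2 ratio of distal to proximal counts was 0.41 without sharing genes and 1.40 with the added counts (distal side alone), and 1.03 to 1.06 leaving out each replicate. The miR-379 and miR-411 share was 17.6% and 25.3% under these 2 settings (28.0 to 30.2% leaving out each replicate). The miR-376 share was 6.66% with the added counts (0.688 to 0.721% leaving out each replicate) and has no value without sharing genes, as Mir376c shares sequence. The miR-154 share stayed within 1 SD (47.0 to 48.2%; 47.1 to 48.2% leaving out each replicate). Detected members numbered 29 to 31 under every setting tried, with 30 and 31 leaving out each replicate. Members called different between libraries numbered 10 (replicate 1 thinned) to 17 (both strands), and 6 of the 15 kept call and direction under all 5 settings. Mir541 reversed to -0.023 with TMM and -0.013 with DESeq2 size factors. With 1 library left out, no comparison between libraries exists. No paired analysis was possible because the series has 1 group. Replicate 1 was 3.87 times deeper, so replicate 2 limits precision for members under 100 CPM.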
